A study of Mus musculus with 4 samples.

Results

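The genes of retinoic acid (RA) signalling and metabolism described here, 10 in all, were followed in single undifferentiated spermatogonia (A_undiff) of the mouse testis. They were chosen by symbol and not by a cut on level, but with earlier results of these data known. They make up 10 of the 27514 genes listed in all 4 libraries. Counts of called members beside the share of all genes describe these members and are no test of the list. They are the RA receptors Rara, Rarb and Rarg, their partners Rxra and Rxrb, the RA-binding protein Crabp1, the RA-producing enzymes Rdh10 and Aldh1a2, the retinal-reducing enzyme Dhrs3 and the RA-induced gene Stra8. Each had UMIs in at least 3 of the 4 libraries in all passing, Gfra1+, Sox3+ and Kit+ cells, as defined below.

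RA is made from retinol by an oxidation to retinal and a further oxidation to the acid, and it acts in the nucleus through heterodimers of an RA receptor and a retinoid X receptor that sit on direct repeats of a hexamer in DNA. In the testis RA drives spermatogonia out of the undifferentiated state, and Stra8 is the gene most often used to read that response. Among A_undiff, GFRα1+ cells are the stem-cell-rich fraction, SOX3+ cells are progenitors in which RARγ confers competence to respond to RA, and c-KIT marks spermatogonia that have begun to differentiate.

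A_undiff were sorted as E-cadherin+ CD49f+ c-KIT- cells from adult C57BL/6J mice of 6 to 8 weeks, either untreated (CTRL) or 10 days (D10) after busulfan (BU) at 10 mg/kg, a single dose of an alkylating agent toxic to spermatogonia. Cells of 3 mice were pooled per library. There were 2 experiments with a CTRL and a BU library each, which makes n = 2 libraries per group, and where values of a group are given as a pair, experiment 1 comes first. Where 4 values stand in a row, the CTRL libraries of experiments 1 and 2 precede the BU libraries. The pooled mice cannot be told apart. A transcript level is given as CPM, in which the UMIs (unique molecules) of a gene are divided by those of all genes in the cells named and scaled to the usual common total, and is compared between sets of cells or libraries for 1 gene at a time, not between genes.

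The libraries held between 21136369 and 53579969 UMIs, and 7493 cells passed the filter of over 1000 genes and under 20% mitochondrial UMIs. The median passing cell held 8066 UMIs in CTRL 1 and 9857.5 in BU 1, but 30931 in CTRL 2 and 34176.5 in BU 2, so the experiments differed in depth and the pairs within an experiment did not differ to that extent. CTRL 2 and BU 2 shared 677 barcodes, with a median depth ratio of 72.6 between the copies, and 70 of the 677 passed in both libraries. The other pairs of libraries shared at most 11. No member's call without the replicate block changed when the shallower copies were left out, in any comparison below. All 7 spermatogonial markers were detected in every library. Cells marked by transcripts of somatic cells or of spermatids, neither of which the sort was meant to keep, were 6.09% and 4.28% of passing cells in CTRL 1 and BU 1 and 19.9% and 18.6% in CTRL 2 and BU 2.

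A cell was called Gfra1+, Sox3+ or Kit+ where that gene's UMIs, scaled to a total of 100000 per cell and taken as ln(1 + value), exceeded 2. Gfra1+ cells numbered 585 and 214 in the CTRL libraries and 865 and 528 in the BU libraries. Sox3+ cells numbered 1470, 646, 473 and 264 in the same order, and Kit+ cells 36, 37, 322 and 156. A c-KIT- sort should leave out differentiating spermatogonia, but Kit+ cells were not all of that kind. With somatic or spermatid marked cells left out, 36, 25, 311 and 149 remained. Kit+ cells of CTRL 2 held 3287 CPM of the Leydig cell gene Cyp17a1, against 0 in each other library. They held 3808 CPM of the spermatid gene Prm1, against 63.5 in CTRL 1, 123 in BU 1 and 232 in BU 2. A single UMI lifted a cell over this threshold wherever the cell held fewer than 15651 UMIs, which was true of 96.9% of passing cells in CTRL 1 and 90.1% in BU 1 but of 17.0% in CTRL 2 and 13.8% in BU 2. The classes overlapped, to an extent that differed between CTRL and BU. Kit was also above its threshold in 1.63% and 3.096% of the Sox3+ cells of CTRL, against 28.3% and 32.6% of those of BU. Of Gfra1+ cells, 25.6% and 36.4% were also Sox3+ in the CTRL libraries, against 11.6% and 10.8% in the BU libraries. Fewer cells of a kind and less RNA per cell cannot be told apart in a summed level, so the levels are given below also in cells split by a second marker.

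The hexamers that RA receptors can bind were searched in RefSeq promoter windows (GRCm38.p6, 250 bases before to 50 after a start site), because Stra8 and Rarb are textbook RA-induced genes and the level of Rarg differed between the classes. The letters searched were AGGTCA or AGTTCA or GGGTCA or GGTTCA, on both strands, and their direct repeats spaced by 1, 2 or 5 bases (DR1, DR2, DR5). Windows were listed for 9 members, Rdh10 being the member without one, and 6 of the 17 windows, of 5 members, held at least 1 hexamer. Of all 32851 windows listed, 43.7% held at least 1 of these hexamers, and 16.3% held AGGTCA. The matches of Stra8, Rarb and Rarg are shown 5′ to 3′ on the gene's strand as stretches of 30 bases, with the hexamer letters in capitals.
Stra8, chr6:34920742-34920771, plus strand: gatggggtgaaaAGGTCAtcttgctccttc
Stra8, chr6:34920898-34920927, plus strand: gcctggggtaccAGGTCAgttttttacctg
Rarb, chr14:16575542-16575571, minus strand: gtcagactggttGGGTCAtttgaaggttag
Rarb, chr14:16575506-16575535, minus strand: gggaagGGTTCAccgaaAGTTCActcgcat
Rarg, chr15:102257730-102257759, minus strand: agcccaggacacTGACCTctgccagctctg

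The Stra8 window held AGGTCA at bases -194 to -189 and again at -38 to -33 from its start, both on the plus strand of chromosome 6. GENCODE M21 places both stretches in untranslated exon sequence of the transcript Stra8-201. The Rarb window held the DR5 of bases -53 to -37, an arrangement found in 0.0974% of all windows (32 of 32851), and GENCODE M21 places it in untranslated exon sequence of Rarb-201 and Rarb-207 and in an intron of Rarb-203 and Rarb-204. The match of Rarg was the reverse complement of AGGTCA, at bases -225 to -220 from one of its listed starts and outside every annotated Rarg transcript. None of the windows of Crabp1, Dhrs3, Aldh1a2 and Rxrb held any of these letters, which says nothing of sequence outside the windows. A match is a run of letters and was not tested for binding.

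Rarg, the RA receptor of progenitors, differed more between Sox3+ and Gfra1+ cells than the other 8 members tested. In cells above the threshold for Gfra1 alone, Rarg was at 7.10 and 5.24 CPM in the CTRL libraries and 5.31 and 3.90 CPM in the BU libraries. In cells above the threshold for Sox3 alone it was at 52.6, 47.2, 31.8 and 18.3 CPM. The lowest Sox3+ library therefore lay above the highest Gfra1+ library. The log2 fold change of Sox3+ over Gfra1+ cells was 2.77 (SE 0.223, edgeR quasi-likelihood test paired by library, n = 4 libraries, Benjamini-Hochberg adjusted p = 9.46e-05), and the call held under all 11 alternatives tried.

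Crabp1, a cytosolic RA-binding protein, was also higher in Sox3+ than in Gfra1+ cells in every library. It was at 125, 86.0, 78.1 and 81.1 CPM in cells above the Gfra1 threshold alone (CTRL 1, CTRL 2, BU 1, BU 2) and at 202, 135, 283 and 271 CPM in those above the Sox3 threshold alone. The log2 fold change was 1.27 (SE 0.228, adjusted p = 0.00382), and the call was lost with classes defined by any UMI (adjusted p = 0.466). Rara, the receptor most widely present in the testis, differed less, at 21.3, 25.2, 24.7 and 18.3 CPM against 34.1, 35.5, 36.2 and 20.8. Its log2 fold change of 0.54 (SE 0.151, adjusted p = 0.0359) was called under 6 of 11 alternatives. The call was lost without CTRL 1 (adjusted p = 0.184), without BU 1 (0.207), without BU 2 (0.0524), with no filter on low counts (0.0523) and with classes defined by any UMI (0.412). With these, 3 of the 9 members tested were called higher in Sox3+ than in Gfra1+ cells and none lower, against 13.5% of all 12213 genes called in either direction. Rarb had too few UMIs to be tested between classes.

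Dhrs3 was lower in Sox3+ than in Gfra1+ cells in every library but was not called. It was at 8.34, 3.41, 10.1 and 8.52 CPM in cells above the Gfra1 threshold alone and at 1.51, 1.054, 1.97 and 3.70 CPM in those above the Sox3 threshold alone. Its log2 fold change was -2.01 (SE 0.750, adjusted p = 0.106) and ran from -2.39 to -1.39 over 11 alternatives, of which 4 called it. These were the fit with marked cells left out (-1.94, adjusted p = 1.97e-06), where 36.6% of all genes tested were called, and those without CTRL 2, with no filter on low counts and with cells above more than 1 threshold kept.

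Stra8 stood at 45.7, 45.4, 74.2 and 47.7 CPM in cells above the Gfra1 threshold alone and at 56.4, 28.0, 205 and 100.2 CPM in those above the Sox3 threshold alone. The sets overlapped in CTRL, where 1 library was higher and 1 lower in Sox3+ cells, and both BU libraries were higher in Sox3+ cells. Over all 4 libraries the log2 fold change of 0.68 (SE 0.318) was not called (adjusted p = 0.196). It was called under 3 of 11 alternatives, over which the log2 fold change ran from 0.36 to 1.01. Among these was the fit with somatic or spermatid marked cells left out (adjusted p = 0.0139), where 36.6% of all genes tested were called.

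Kit+ cells held the highest Stra8 of the classes. Cells above the Kit threshold alone were at 401, 215, 334 and 233 CPM of Stra8 in CTRL 1, CTRL 2, BU 1 and BU 2, each above the Sox3+ value of its own library. The log2 fold change of Kit+ over Sox3+ cells was 1.65 (SE 0.340, adjusted p = 0.0138), and Stra8 was the only 1 of 9 members tested that was called, against 14.7% of all 12213 genes. The call was lost without CTRL 1 (adjusted p = 0.0656) and without BU 2 (0.0831), and with classes defined by any UMI the log2 fold change was 0.71 (adjusted p = 0.410). The Kit+ cells above no other threshold numbered 10 in CTRL 1 and 15 in CTRL 2, and 10 and 4 without those that carried somatic or spermatid marks. Crabp1 had a log2 fold change of 0.72 (adjusted p = 0.0604) and Rarg of -0.76 (adjusted p = 0.0652) in the same comparison, neither called. Crabp1 was called under 3 of 11 alternatives, among them the fit with marked cells left out (0.97, adjusted p = 1.08e-05), where 30.2% of all genes tested were called, and Rarg under 1 of 11.

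**Figure D1:**
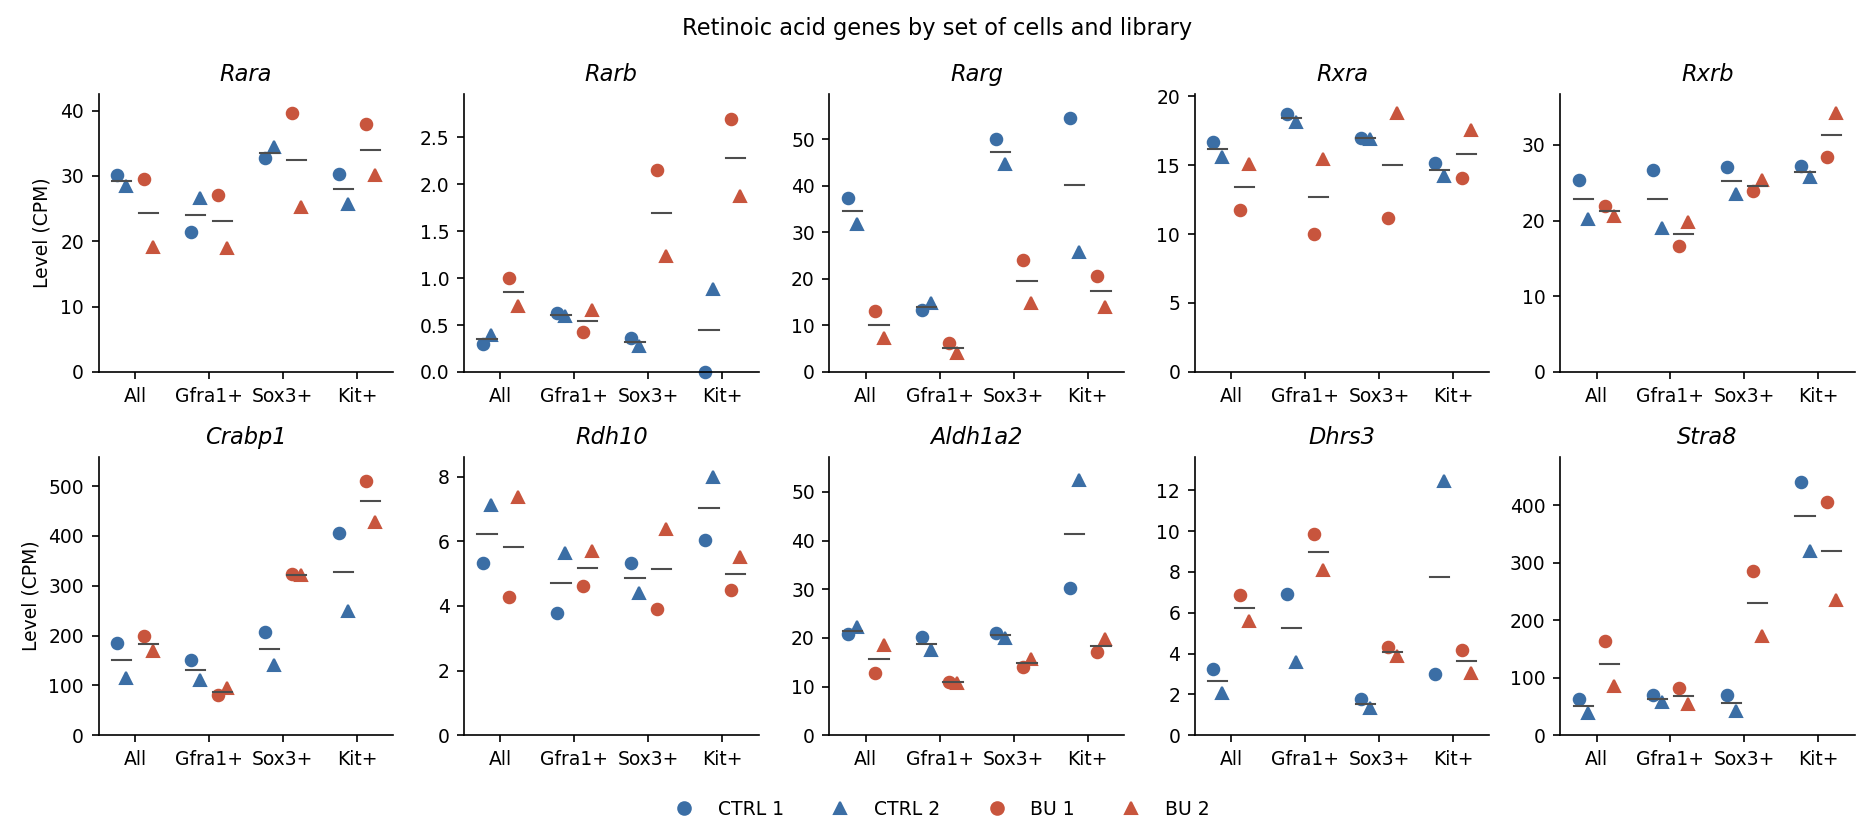
Level in CPM (linear axis from 0) of each member in all passing cells and in Gfra1+, Sox3+ and Kit+ cells, with 1 point per library (blue CTRL, red BU, circles experiment 1, triangles experiment 2) and a line at the mean of each group. Both BU libraries lay above both CTRL libraries for Stra8 in Sox3+ cells (286 and 173 against 70.2 and 41.9 CPM) and below them for Rarg in all passing, Gfra1+, Sox3+ and Kit+ cells.

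The comparison of BU with CTRL asked whether the RA genes of the surviving A_undiff differed at the start of regeneration. In Sox3+ cells Stra8 was about 4 times as high after BU, Crabp1 was higher and Rarg lower. These differences were called by edgeR when libraries were paired by experiment, while in Gfra1+ cells no member passed a test. That contrast does not make them particular to Sox3+ cells. The main test of the change in Sox3+ minus that in Gfra1+ cells called 0 of 9 members, and Stra8 and Crabp1 were called there under 4 of 11 alternatives each. The BU level of Rarg was 0.463 and 0.284 of CTRL in Gfra1+ cells and 0.482 and 0.331 in Sox3+ cells. The Sox3+ cells of the groups also differed in other markers. Their 5 progenitor markers (Sox3 included) summed to 657 and 548 CPM in CTRL and 244 and 217 in BU. The 6 stem markers summed to 78.5 and 94.8 CPM in CTRL and 159 and 256 in BU, and of these Id4 overlapped between the groups. The 5 genes listed as differentiating markers (Kit included) summed to 935 and 574 CPM in CTRL and 1018 and 792 in BU. Ccnd2 among them was at 290 and 193 CPM in CTRL and 475 and 394 in BU. In every library Ccnd2 was higher in Gfra1+ cells (840, 600, 1282 and 880 CPM) than in Kit+ cells (780, 319, 329 and 297 CPM). It did not mark Kit+ cells here, so the sum that holds it is no measure of differentiation. Of the 5, Kit, Dmrtb1 and Ccnd2 were higher in both BU libraries than in both CTRL libraries, and Sohlh1 and Dnmt3b overlapped. Sohlh1 went the other way within each experiment, from 520.3 to 317 CPM and from 292 to 195.3 CPM. It was called lower after BU when libraries were paired by experiment, as given below with the wider list. Kit was at 2.05 and 6.61 CPM in CTRL and 48.6 and 65.7 in BU. The part of such markers in the differences of the RA genes was not tested. With condition as the only term, none of the 10 members and none of 17354, 13630, 14443 and 11028 genes tested in all passing, Gfra1+, Sox3+ and Kit+ cells were called by edgeR, 0% in each. At an unadjusted p under 0.05 these fits held 926, 582, 2027 and 910 genes, and DESeq2 called 119, 15, 332 and 46. With the experiment as a replicate block, which pairs each BU library with the CTRL library of its experiment, edgeR called 258, 9, 812 and 115 genes, so values with and without it are given for each member whose call turned on it.

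Stra8 in Sox3+ cells was at 70.2 and 41.9 CPM in the CTRL libraries and 286 and 173 CPM in the BU libraries. Both BU libraries lay above both CTRL libraries, and the ratio was 4.08 in experiment 1 and 4.13 in experiment 2. The log2 fold change was 1.99 with an SE of 0.384 and an adjusted p of 0.191 without the block, and 1.99 with an SE of 0.156 and an adjusted p of 0.0179 with it. DESeq2 without the block gave an adjusted p of 0.000719, where it called 2.3% of all genes tested. With the block, Stra8, Crabp1 and Rarg made 3 of 10 members called in Sox3+ cells, against 5.62% of all genes tested.

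The larger share of Kit+ cells among Sox3+ cells after BU stood beside this difference, and Stra8 was high in such cells in all 4 libraries. In cells positive for both Sox3 and Kit it was at 481 CPM in CTRL 1 (24 cells), 396 in CTRL 2 (20 cells), 557 in BU 1 (134 cells) and 293 in BU 2 (86 cells), and the groups overlapped. In Sox3+ cells below the Kit threshold it was at 63.3, 32.0, 180.3 and 95.01 CPM, and both BU libraries again lay above both CTRL libraries. In cells above the Sox3 threshold alone the blocked log2 fold change was 1.83 (SE 0.236, adjusted p = 0.00201), where 1.48% of all genes tested were called, and without the block it was not called (1.83, SE 0.456, adjusted p = 0.456). Cells below the threshold for Kit can still hold Kit transcripts that were not captured.

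The share of Sox3+ cells with a Stra8 UMI was compared in cells thinned to 5000 UMIs, which left out the shallower cells (41 and 8 Sox3+ cells in the CTRL libraries, 6 and 5 in the BU libraries). It was 17.1% and 11.1% in the CTRL libraries and 46.7% and 35.9% in the BU libraries. Without thinning the shares were 21.6%, 29.9%, 57.1% and 64.8%. The difference of the group means was 27.2 percentage points at 1 depth (exact permutation test, two-sided, p = 0.333, the smallest that 2 against 2 libraries allow). In somatic marked cells, which should lack Stra8, the thinned shares were 0%, 0%, 0% and 1.82% of only 4, 32, 2 and 55 cells deep enough, and a count of 0 allows up to 9.38% in CTRL 2 and sets no useful limit in CTRL 1 and BU 1. In all somatic marked cells the Stra8 level was 0, 4.45, 11.5 and 0.986 CPM.

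Stra8 in Gfra1+ cells was at 69.8 and 57.0 CPM in the CTRL libraries and 83.0 and 54.0 CPM in the BU libraries, so the groups overlapped. In cells above the Gfra1 threshold alone it was at 45.7 and 45.4 CPM in CTRL and 74.2 and 47.7 in BU. There both BU libraries lay above both CTRL libraries, by little in experiment 2. In Gfra1+ cells the blocked log2 fold change was 0.18 (SE 0.214, adjusted p = 0.778), and Stra8 was called there in no setting tried. With the block 0 of 9 members tested were called in Gfra1+ cells, against 0.066% of all genes. In all passing cells Stra8 was at 64.0, 39.4, 163 and 86.1 CPM, with a log2 fold change of 1.29 without the block (adjusted p = 0.938) and of 1.27 with it (SE 0.206, adjusted p = 0.0401). There 2 of 10 members, Stra8 and Rarg, were called with the block, against 1.49% of all genes tested.

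In Kit+ cells Stra8 was at 442 and 321 CPM in the CTRL libraries and 406 and 235 CPM in the BU libraries. The groups overlapped, and the blocked log2 fold change was -0.33 (SE 0.271, adjusted p = 0.702). None of the 8 members tested in Kit+ cells was called with the block, against 1.04% of all genes. The change of Stra8 itself differed between classes, as 1 of 3 of the 9 members called in that comparison, against 3.55% of all genes tested. The change in Kit+ minus that in Sox3+ cells, in cells above 1 threshold only, was -1.88 (SE 0.311, adjusted p = 0.0119), and Stra8 was still called with the marked cells left out, where 0.0853% of genes were. The call held under 8 of 11 alternatives. It was lost without BU 1 (-1.51), without BU 2 (-2.11) and with classes defined by any UMI, where 0 of 12840 genes were called. The change in Sox3+ minus that in Gfra1+ cells was 1.33 (SE 0.260, unadjusted p = 0.000265, adjusted p = 0.186), a comparison in which 0 of 9 members and 0.0246% of all genes were called. Stra8 was called there under 4 of 11 alternatives, with marked cells left out (1.33, adjusted p = 8.49e-07), where 2.2% of all genes tested were called, with cells above more than 1 threshold kept (1.79, adjusted p = 0.000116), where 2.11% were, with no filter on low counts (1.23, adjusted p = 0.000197) and without CTRL 1 (1.78, adjusted p = 4.63e-07). It was not called without CTRL 2 (0.85, adjusted p = 0.104), without BU 1 or without BU 2 (adjusted p = 1 for each).

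**Figure D2:**
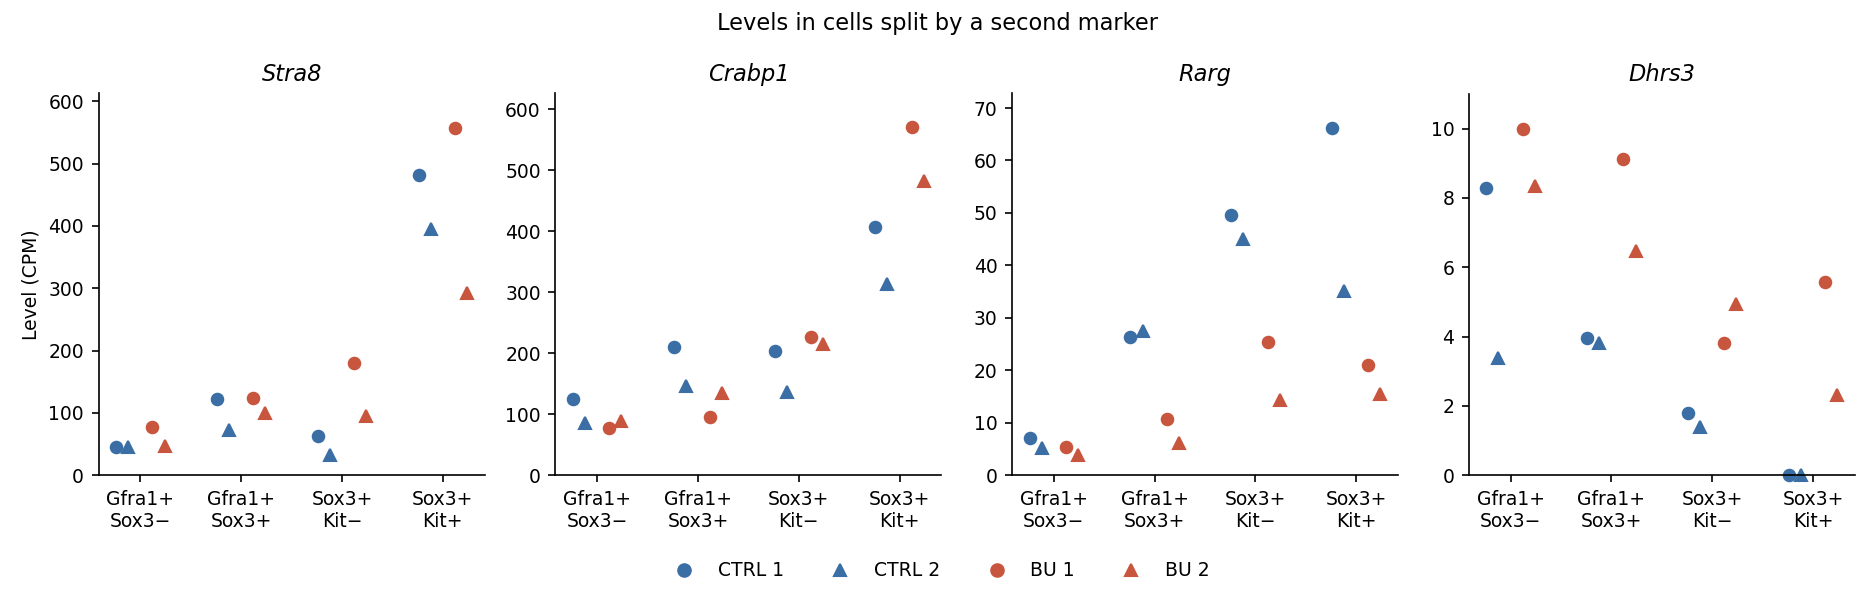
Level in CPM (linear axis from 0) of Stra8, Crabp1, Rarg and Dhrs3 in Gfra1+ cells without and with Sox3 and in Sox3+ cells without and with Kit, 1 point per library. Stra8 in Sox3+ Kit- cells was at 63.3 and 32.0 CPM in CTRL and 180.3 and 95.01 in BU, and the groups overlapped in Sox3+ Kit+ cells.

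Crabp1 in Sox3+ cells was at 207 and 141 CPM in the CTRL libraries and 323 and 321 CPM in the BU libraries. Both BU libraries lay above both CTRL libraries, by 1.56 times in experiment 1 and 2.28 times in experiment 2. The log2 fold change was 0.85 without the block (SE 0.267, adjusted p = 0.268) and 0.87 with it (SE 0.177, adjusted p = 0.0475). In cells above the Sox3 threshold alone the blocked value was 0.73 and was not called (adjusted p = 0.106).

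Crabp1 went with Kit as well as with Sox3. Sox3+ Kit+ cells were at 406, 312, 571 and 482 CPM in CTRL 1, CTRL 2, BU 1 and BU 2, and Sox3+ Kit- cells at 203, 136, 226 and 215 CPM. In both sets each BU library lay above both CTRL libraries. In Gfra1+ cells the order was the opposite, at 152 and 111 CPM in the CTRL libraries and 80.2 and 94.96 in the BU libraries. The blocked log2 fold change there was -0.48 (SE 0.244) and was not called (adjusted p = 0.478), and the change in Sox3+ minus that in Gfra1+ cells was 0.98 (SE 0.189, adjusted p = 0.186). That difference was called under 4 of 11 alternatives, with marked cells left out (1.00, adjusted p = 3.84e-06), with cells above more than 1 threshold kept (1.31, adjusted p = 0.00458), without CTRL 1 (0.96, adjusted p = 0.00228) and without CTRL 2 (0.98, adjusted p = 0.0137), and not without either BU library.

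Rarg was lower in both BU libraries than in both CTRL libraries in all passing, Gfra1+, Sox3+ and Kit+ cells. In all passing cells it was at 37.4 and 31.7 CPM in the CTRL libraries and 13.01 and 7.26 CPM in the BU libraries. In Sox3+ cells it was at 49.9, 44.7, 24.1 and 14.8 CPM, and in Gfra1+ cells at 13.2, 14.7, 6.12 and 4.17 CPM. Kit+ cells were at 54.4, 25.8, 20.6 and 14.0 CPM. Only the order of BU below CTRL was common to these sets, which share cells, and CTRL 2 lay above CTRL 1 in Gfra1+ cells alone. The BU library held 0.348 of the CTRL level in all passing cells of experiment 1 and 0.229 in experiment 2.

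The blocked log2 fold change of Rarg was -1.80 in all passing cells (SE 0.279, adjusted p = 0.0355) and -1.37 in Sox3+ cells (SE 0.222, adjusted p = 0.0345). Without the block the same values were -1.74 (adjusted p = 0.871) and -1.34 (adjusted p = 0.214). In Gfra1+ cells the blocked value of -1.38 was not called (SE 0.316, adjusted p = 0.134), nor was that of -1.16 in Kit+ cells (adjusted p = 0.283). Progenitors were fewer after BU, with Sox3+ cells at 47.4% and 57.7% of passing cells in CTRL against 23.6% and 20.9% in BU.

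The cells were then split by a second marker. In Gfra1+ cells below the Sox3 threshold it was at 7.07, 5.20, 5.43 and 3.89 CPM, and the groups overlapped. In Gfra1+ cells that were also Sox3+ it was at 26.4, 27.4, 10.8 and 6.14 CPM, and in Sox3+ Kit- cells at 49.7, 45.0, 25.3 and 14.4 CPM. In both of these sets the BU libraries lay below the CTRL libraries. In cells above the Kit threshold alone Rarg was at 33.4, 12.3, 23.7 and 17.2 CPM, on 3, 5, 36 and 41 UMIs, and the groups overlapped. In cells above 1 threshold only, the blocked log2 fold change was -0.33 in Gfra1+ cells (adjusted p = 0.812) and -1.06 in Sox3+ cells (adjusted p = 0.0729), neither called.

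At 5000 UMIs per cell, with shallower cells left out, a Rarg UMI was found in 21.5% and 18.7% of Sox3+ cells of CTRL and in 10.9% and 9.27% of those of BU. Without thinning these shares were 34.4% and 68.3% in CTRL and 20.7% and 37.5% in BU. The thinned shares did not overlap and the unthinned ones did. The difference at 1 depth was -9.97 percentage points (exact permutation test, two-sided, p = 0.333, the smallest possible).

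**Figure D3:**
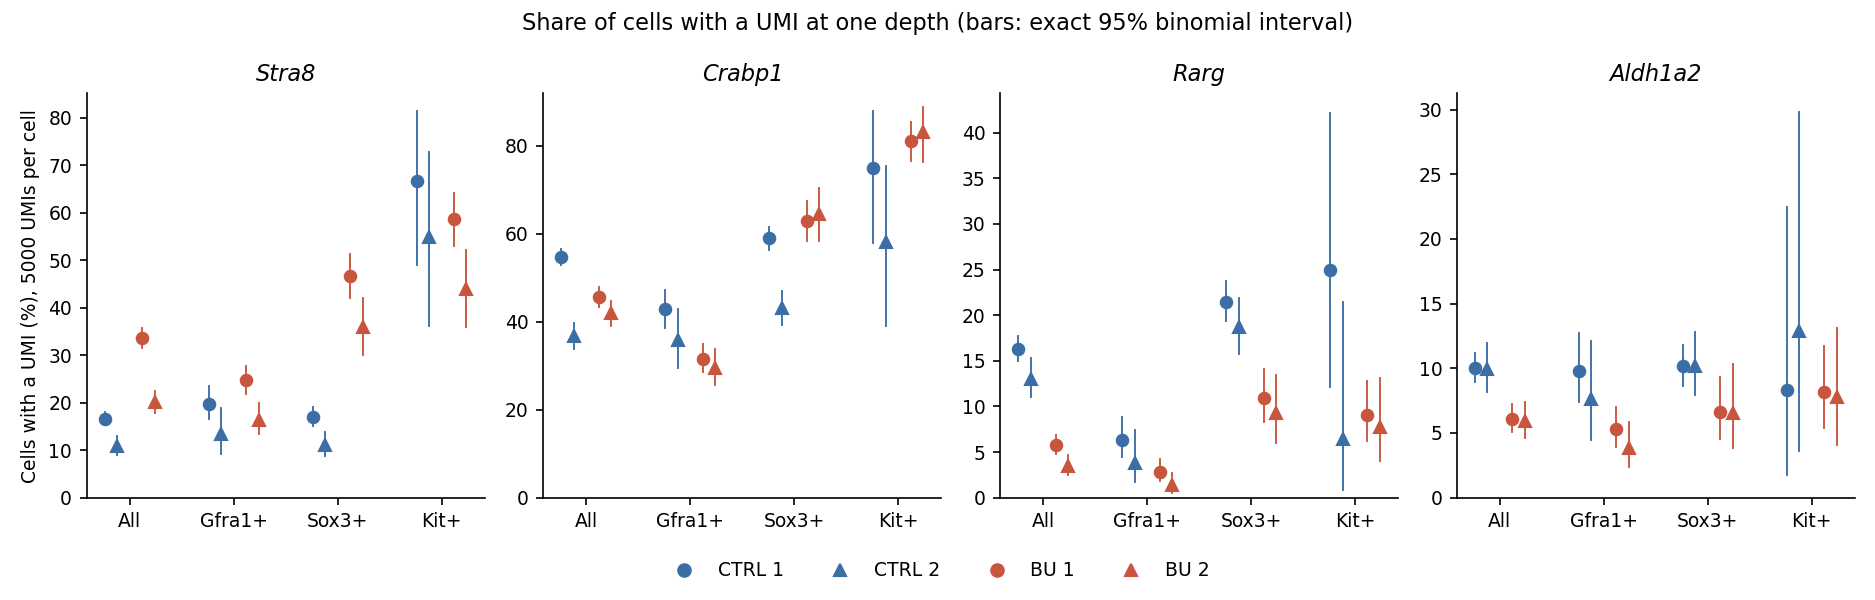
Percentage of cells with at least 1 UMI of Stra8, Crabp1, Rarg and Aldh1a2 in cells thinned to 5000 UMIs (shallower cells left out), with 1 point per library and bars for the exact 95% binomial interval, which covers counting error only. In Sox3+ cells the shares with Stra8 were 46.7% and 35.9% in BU against 17.1% and 11.1% in CTRL, and those with Rarg 10.9% and 9.27% against 21.5% and 18.7%.

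Counting Rarg against Rara in the same cells gave a measure that does not use the library total. All passing cells held 124 and 111 Rarg UMIs per 100 Rara UMIs in CTRL, and 44.0 and 38 in BU. Sox3+ cells held 153 and 129.9 in CTRL against 60.9 and 58.5 in BU. In cells above the Gfra1 threshold alone the ratio was 33.3, 20.8, 21.5 and 21.3, and the groups overlapped, whereas in those above the Sox3 threshold alone it was 154, 133, 88.0 and 87.9, and they did not.

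**Figure D4:**
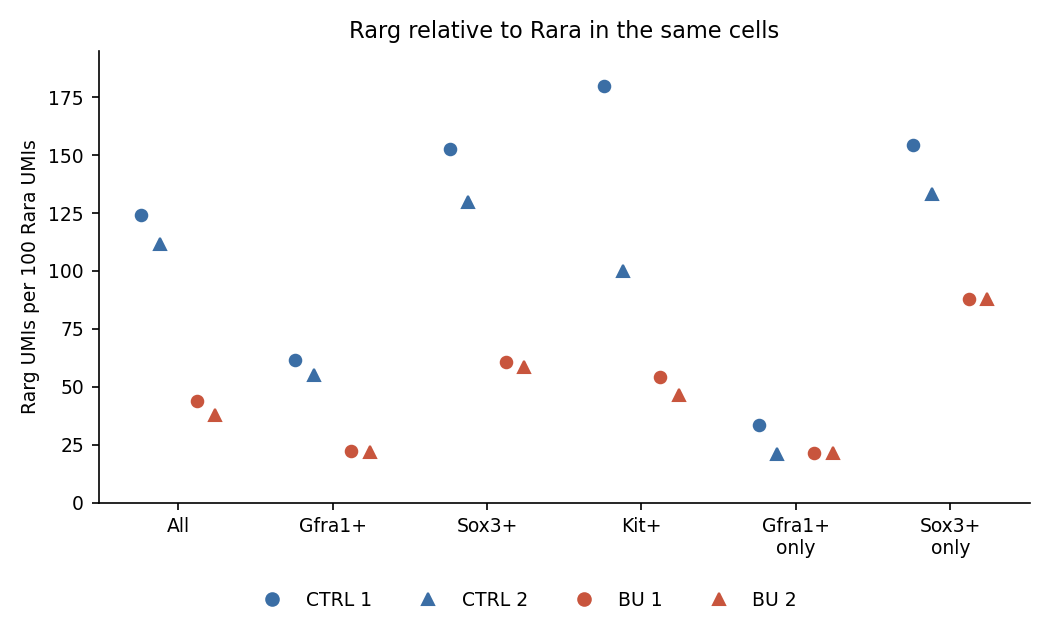
Rarg UMIs per 100 Rara UMIs (linear axis from 0) in all passing, Gfra1+, Sox3+ and Kit+ cells and in cells above the Gfra1 or Sox3 threshold alone, 1 point per library. In cells above the Sox3 threshold alone the CTRL libraries were at 154 and 133 and the BU libraries at 88.0 and 87.9.

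Rara itself overlapped between the groups in all 4 sets of cells. In Sox3+ cells it was at 32.7 and 34.5 CPM in the CTRL libraries and 39.6 and 25.3 CPM in the BU libraries, higher after BU in experiment 1 and lower in experiment 2. In Gfra1+ cells it was at 21.4, 26.6, 27.2 and 19.0 CPM, again overlapping. The blocked log2 fold changes were -0.27 in all passing, 0.01 in Gfra1+, -0.13 in Sox3+ and 0.23 in Kit+ cells, with adjusted p between 0.615 and 0.993.

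Rarb, a receptor gene that is itself induced by RA and the holder of the DR5 shown above, had few UMIs. In Sox3+ cells it was at 0.366 and 0.277 CPM in the CTRL libraries and 2.15 and 1.24 CPM in the BU libraries, so both BU libraries were higher. The log2 fold change of 2.30 (SE 0.568) was not called without the block (adjusted p = 0.216) or with it (2.27, SE 0.541, adjusted p = 0.0653). It rested on 5 and 7 UMIs in CTRL and 11 and 15 in BU. Rarb passed the filter on low counts there only through its BU levels, so this test carries no weight. Exons of Rarb overlap those of Top2b and Gm48162 on the opposite strand.

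Of the retinoid X receptors, none was called between BU and CTRL in any setting tried. Between classes Rxrb was not called in the main fits. It was called in Sox3+ against Gfra1+ cells under 2 of 11 alternatives, over which its log2 fold change ran from 0.35 to 0.48. In Kit+ against Sox3+ cells it was called under 3 of 11, with a range from -0.081 to 0.64. Rxra in Sox3+ cells was at 17.0, 16.9, 11.2 and 18.8 CPM in CTRL 1, CTRL 2, BU 1 and BU 2, and Rxrb at 27.1, 23.5, 23.9 and 25.3 CPM, and the groups overlapped for both. In Gfra1+ cells Rxra was at 18.7 and 18.1 CPM in CTRL and 9.99 and 15.4 in BU, which did not overlap. Over all passing, Gfra1+, Sox3+ and Kit+ cells their blocked log2 fold changes ran from -0.45 to 0.23 and none was called.

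Of the enzymes that make RA, Aldh1a2, the retinal dehydrogenase of spermatogenic cells, was lower in both BU libraries in all passing, Gfra1+, Sox3+ and Kit+ cells. In Sox3+ cells it was at 21.1 and 19.98 CPM in the CTRL libraries and 14.1 and 15.7 CPM in the BU libraries, and in Gfra1+ cells at 20.1, 17.5, 10.95 and 10.7 CPM. The blocked log2 fold changes of -0.50 (SE 0.213, adjusted p = 0.191) and -0.69 (SE 0.262, adjusted p = 0.355) were not called. At 5000 UMIs per cell, which left out 276 and 114 passing cells in CTRL and 80 and 95 in BU, an Aldh1a2 UMI was found in 10.0% and 9.94% of the rest in CTRL and in 6.07% and 5.90% in BU.

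Aldh1a2 in Kit+ cells was at 30.2 and 52.4 CPM in the CTRL libraries and 17.1 and 19.8 CPM in the BU libraries, with a blocked log2 fold change of -1.22 (adjusted p = 0.241). Somatic marker transcripts stood beside the value of CTRL 2, whose Kit+ cells held 6743 CPM of the 21 somatic markers against 66.5 in CTRL 1, 35.0 in BU 1 and 38.6 in BU 2. Without the marked cells Aldh1a2 was at 30.2, 28.8, 17.4 and 19.9 CPM. The groups still did not overlap, and the blocked log2 fold change was -0.63 (adjusted p = 0.654).

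Rdh10, which oxidises retinol to retinal, overlapped between the groups in all passing, Gfra1+ and Sox3+ cells. It was at 5.34 and 4.39 CPM in the CTRL libraries and 3.92 and 6.37 CPM in the BU libraries in Sox3+ cells. Its blocked log2 fold change there was 0.08 (SE 0.339, adjusted p = 0.904).

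Dhrs3, which reduces retinal back to retinol and is itself induced by RA in other tissues, was higher in both BU libraries in Gfra1+ and Sox3+ cells. In Gfra1+ cells it was at 6.92 and 3.57 CPM in the CTRL libraries and 9.88 and 8.10 CPM in the BU libraries, and in Sox3+ cells at 1.75, 1.34, 4.31 and 3.89 CPM. The blocked log2 fold changes of 0.94 (SE 0.354, adjusted p = 0.354) and 1.38 (SE 0.342, adjusted p = 0.0700) were not called. In all passing cells Dhrs3 was called with the block only when the somatic or spermatid marked cells were left out (1.35, SE 0.331, adjusted p = 0.00738), where 13% of all genes tested were called. In the same cells without the block it was not called (1.27, SE 0.448, adjusted p = 0.394). Somatic marked cells held 28.2, 22.3, 57.5 and 5.92 CPM of Dhrs3, and their part in the other values was not tested.

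In Kit+ cells Dhrs3 was at 3.02 and 12.4 CPM in the CTRL libraries and 4.19 and 3.04 CPM in the BU libraries, and its counts were under the filter. CTRL 2 stood apart there, and without the marked cells the levels were 3.02, 1.20, 4.34 and 3.098 CPM. Dhrs3 in cells above the Kit threshold alone was called lower after BU with the block (-3.44, SE 0.852, adjusted p = 0.00476), where 2.92% of all genes tested were called, on 1 and 14 UMIs in CTRL and 3 and 7 in BU. It passed the filter there only through its CTRL levels (11.1 and 34.5 CPM, against 1.97 and 2.94 in BU), so this call carries no weight. Without the block it was not called there (-3.60, SE 0.725, adjusted p = 0.211).

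**Figure D5:**
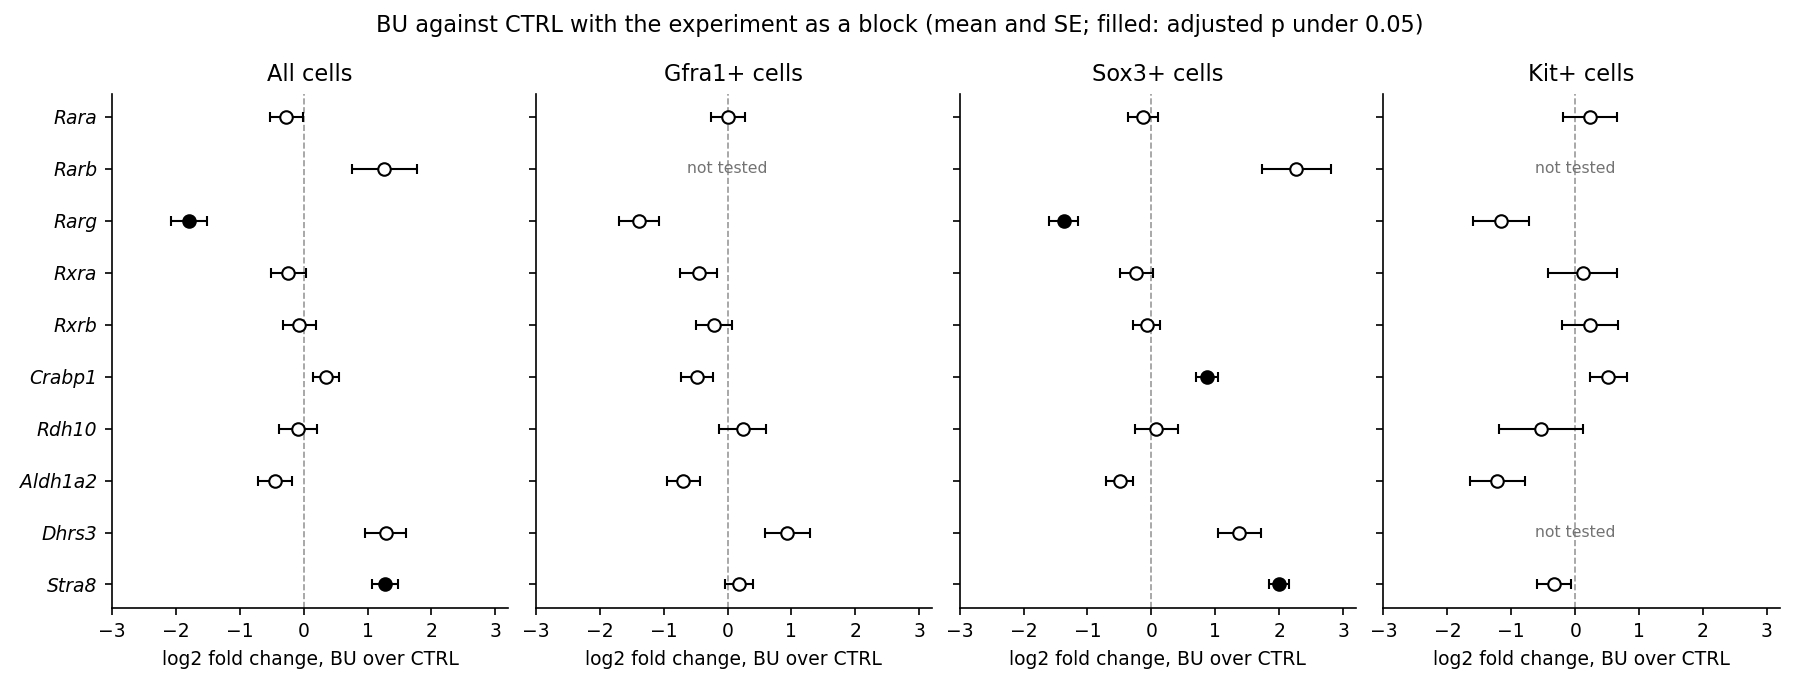
Log2 fold change of BU over CTRL with its SE for each member in 4 sets of cells, from the fit with the experiment as a block. Filled points mark an adjusted p under 0.05. They were Stra8 (1.27) and Rarg (-1.80) in all passing cells and Stra8 (1.99), Crabp1 (0.87) and Rarg (-1.37) in Sox3+ cells. None of these was called by the same edgeR fit of the 4 libraries without the block.

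The levels of BU and CTRL libraries did not overlap for 6 of 10 members in all passing cells, against 33.4% of all genes tested. The count was 5 of 10 in Gfra1+ cells, against 32.4% of genes, 6 of 10 in Sox3+ cells, against 46.9%, and 6 of 10 in Kit+ cells, against 38.3%. The shares cover tested genes only, whereas the counts of 10 include Rarb in Gfra1+ cells and Rarb and Dhrs3 in Kit+ cells, which were not tested. Rarb was among the 6 in Kit+ cells. Of the 6 in Sox3+ cells, Stra8, Crabp1, Rarb and Dhrs3 were higher and Rarg and Aldh1a2 lower after BU. The median blocked log2 fold change of the members was near 0 in Sox3+ cells (0.0012), beside 0.0279 over all genes tested, with 5 of 10 members above 0.

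A wider list of 43 other RA genes held 42 that the libraries list. In Sox3+ cells 32 of them were tested, and with the block 4 were called higher and 1 lower, against 5.62% of all genes tested in either direction, with a median log2 fold change of 0.34 beside 0.03 over all genes. The 4 were Cyp26b1, an RA-degrading enzyme (0.585 and 0.831 CPM in CTRL, 3.92 and 3.48 in BU, adjusted p = 0.0381), Crabp2, an RA-binding protein (0.951 and 0.633 against 4.11 and 3.14 CPM, adjusted p = 0.0380), Nrip1, a nuclear receptor corepressor (2.78 and 5.46 against 13.5 and 14.6 CPM, adjusted p = 0.0364), and Rbp4, the retinol carrier (42.1 and 30.7 against 92.5 and 75.6 CPM, adjusted p = 0.0315). Their log2 fold changes were 2.27, 2.17, 1.75 and 1.18. Cyp26b1 and Crabp2 passed the filter on low counts through their BU levels, so their calls carry no weight. Without the block none of the 32 was called.

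The gene called lower in Sox3+ cells was Sohlh1, a transcription factor needed for spermatogonial differentiation, at 520.3 and 292 CPM in CTRL and 317 and 195.3 in BU (log2 fold change -0.69, SE 0.132, adjusted p = 0.0428). In all passing cells 2 of 36 tested were called with the block, against 1.49% of all genes, Sohlh1 lower (-1.01, adjusted p = 0.0466) and the RA-producing enzyme Aldh1a3 higher (1.94, SE 0.296, adjusted p = 0.0348). Aldh1a3 was at 10.5 and 7.19 CPM in CTRL and 31.4 and 33.9 in BU, and in Gfra1+ cells at 17.8 and 22.7 against 42.8 and 51.2. None of 26 tested in Gfra1+ cells was called with the block, against 0.066% of all genes, and none of 23 in Kit+ cells, against 1.04%.

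Between classes, 8 of 24 genes of the wider list tested were called in Sox3+ against Gfra1+ cells, 3 higher and 5 lower, against 13.5% of all genes tested. Those higher in Sox3+ cells included Sohlh1 (1.52, adjusted p = 0.000863) and Fabp5, a lipid-binding protein that can carry RA (1.57, adjusted p = 0.0438). Those lower included Aldh1a3 (-2.33, adjusted p = 0.00102), the RA-degrading enzyme Cyp26a1 (-1.31, adjusted p = 0.0117), the RA-responsive gene Rarres2 (-4.05, adjusted p = 0.0111) and Tbl1xr1, a component of corepressor complexes (-0.47, adjusted p = 0.0358). Levels of Rarres2 in Gfra1+ cells were high in the libraries where somatic transcripts were high. It was at 2.52, 22.0, 4.29 and 20.2 CPM in Gfra1+ cells of CTRL 1, CTRL 2, BU 1 and BU 2, where the 21 somatic markers summed to 58.3, 204, 50.7 and 170 CPM, with 12 to 20 of them detected and Dcn at 0 in each library. Sox3+ cells held 0.0731, 0.514, 0.392 and 2.98 CPM of it, on 1, 13, 2 and 36 UMIs, and 66.1, 61.6, 45.1 and 41.9 CPM of those markers, with 14 to 19 detected. Rarres2 passed the filter on low counts through sums other than those of Sox3+ cells, where it was low, so its call carries no weight. With the marked cells left out its counts were under the filter, and the part of somatic cells in its value was not tested.

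In Kit+ against Sox3+ cells 3 of 24 were called, a share of the list near that of all genes tested (14.7%). All 3 were higher, among them the coactivator Ncoa1 (1.69, adjusted p = 0.0341) and Nrip1 (1.93, adjusted p = 0.0313).

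The genes whose level followed Stra8 most closely over the 12 sums of 3 classes in 4 libraries were Lpgat1, Man2b1 and Manf, with Pearson's r of 0.968, 0.940 and 0.935 on log2(CPM + 1). Those that followed Rarg were Slc27a3, Kif26a and Radil, with r of 0.960, 0.947 and 0.941. They were ranked among 6860 genes with a mean of at least 20 CPM. The sums of a library share its depth and mice, so these values describe the 12 points and carry no p.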

How the data were processed

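The data are single-cell RNA-seq of sorted A_undiff in 4 libraries. Each library's table, as the authors deposited it, holds whole UMI counts (1 row per gene, 1 column per called cell) without normalisation, written by Cell Ranger (3.0.2 in the file headers). Per the labels, GRCm39 and Seurat 3.2 were used, whereas the paper names an earlier mouse build. The labels give droplet kit version 2 for experiment 1 and 3.1 for experiment 2, and the paper version 2 for all. CTRL 1, CTRL 2, BU 1 and BU 2 held 26802228, 39904588, 21136369 and 53579969 UMIs. With n = 2 libraries per group the p-values measure only the spread between these libraries, and intervals of shares reflect counting error alone.

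For each library the UMIs of all passing, Gfra1+, Sox3+ or Kit+ cells were added up and compared by the quasi-likelihood test of edgeR 4.0.16 after filterByExpr and TMM scaling (R 4.3.3, limma 3.58.1), condition being the only term and p-values being adjusted by Benjamini-Hochberg over all genes tested, with a threshold of 0.05. Classes were compared in 12 sums of cells above 1 threshold only, with library as a term, and the changes of classes by an interaction term in the same sums. The SE of an edgeR value is the size of its log2 fold change divided by the square root of the test's F. It therefore carries no information beyond the test. DESeq2 1.42.0 was an alternative. A member whose counts did not pass the filter was not tested. For shares of cells, all 6 assignments of libraries to groups were enumerated (exact permutation, two-sided). Doublets were marked with scrublet in scanpy 1.11.5 at 0.8% per 1000 cells (152 cells, 2.03%), because its own threshold marked 15, and stayed in unless stated. The fits were also run on simulated counts with a set spread between libraries, with and without a simulated difference between experiments. That set spread was smaller than in the unblocked fits of BU against CTRL, so the run does not show their accuracy here. Scripts ran in Python 3.11.15 (pandas 2.3.3, scipy 1.17.1, numpy 2.4.6, matplotlib 3.10.9). Transcript annotation came from GENCODE M21 (GRCm38) and promoter windows from RefSeq.

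The 10 members, the wider list and the markers were chosen with earlier results of these data known. The text names the members, genes of the wider list that a test called (some results of that list are not reported here), and the 3 genes most like Stra8 and Rarg. Library numbers stand for the experiments in the labels, so same-numbered libraries form pairs. As a check, departures from the group mean were correlated between CTRL 1 and BU 1 (0.779), and the main axis of variation (70.5%) split the experiments.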

Additional observations from a re-analysis of the deposited data

Results flagged for a closer look

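The change with BU differed between Kit+ and Sox3+ cells for 3 of the 9 members tested, by the interaction of class and condition in edgeR on cells above 1 threshold only, where 3.55% of 12213 genes were called. The differences on the log2 scale were -4.95 for Dhrs3 (SE 0.935, adjusted p = 0.0202), -1.88 for Stra8 (SE 0.311, adjusted p = 0.0119) and -1.75 for Aldh1a2 (SE 0.408, adjusted p = 0.0402). The CTRL side of the Kit+ sums held 10 cells in CTRL 1 and 15 in CTRL 2. With somatic or spermatid marked cells left out, which leaves 4 of those 15, 10 genes (0.0853%) were called. Stra8 remained called there at -2.12, while Dhrs3 was at -2.65 (adjusted p = 0.623) and Aldh1a2 at -0.11 (adjusted p = 0.972). None of the 3 was called without BU 1, without BU 2 or with classes defined by any UMI, where 0 of 12840 genes were called. Without CTRL 2, Dhrs3 was at -2.998 (adjusted p = 0.732) and Aldh1a2 at -0.92 (adjusted p = 0.758). Dhrs3 in cells above the Kit threshold alone rested on 1, 14, 3 and 7 UMIs in CTRL 1, CTRL 2, BU 1 and BU 2.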

How the results depend on the processing

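Sizes and calls were recomputed under 954 member settings, and 120 shares likewise. With a library left out (290 values) 238 kept direction and side of the threshold, 12 gained and 13 lost a call and 27 turned sign. Under the other settings (664) these were 594, 34, 11 and 25. No value that turned sign was called under its setting. Of the 120 shares, taken as BU minus CTRL, 48 moved by more than the larger SD of the groups and 72 did not. Settings that combine the block with a choice of cells, and those that leave out copies of shared barcodes, were chosen after seeing the data. With a library left out an arm can hold 1 library, which is then assumed to vary like the others, and the replicate block could not be fitted. Without the block, Stra8 in Sox3+ cells was called without CTRL 1 (2.39) and without CTRL 2 (1.62), Rarg in Sox3+ cells without CTRL 2 (-1.46) and Aldh1a2 in Kit+ cells without CTRL 1 (-1.41). The value of Aldh1a2 there has CTRL 2 as its only CTRL library, at 52.4 CPM. Kit+ cells of CTRL 2 held 6743 CPM of the somatic markers, and 25 of 37 remained without marked cells, where Aldh1a2 was lower, as given above. Wherever the block changed a member's call, in cells chosen alike, the member was called with it and not without it, and these were Stra8, Rarg, Crabp1 and Dhrs3. Of 40 pairs of member and class, shares at 5000 UMIs did not overlap between the groups in 22, against 7 when not thinned. The sets share cells and no such count was made over all genes, so these counts say nothing about the members as a list. The causes of these differences were not tested.

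For all passing cells, where 0 genes were called, the count was 258 with the replicate block, 119 by DESeq2 and 2075 with the block and without marked cells, and from 0 to 96 with 1 library left out. For Gfra1+ cells, where 0 genes were called, the count was 9 with the replicate block, 15 by DESeq2, 50 with no filter on low counts, 20 with the block and without marked cells and 79 with the block in cells above 1 threshold only, and from 0 to 25 with 1 library left out. For Sox3+ cells, where 0 genes were called, the count was 812 with the replicate block, 332 by DESeq2, 360 with no filter on low counts, 1391 with the block and without marked cells and 200 with the block in cells above 1 threshold only, and from 9 to 1327 with 1 library left out. For Kit+ cells, where 0 genes were called, the count was 115 with the replicate block, 46 by DESeq2, 564 with no filter on low counts, 58 with the block and without marked cells and 270 with the block in cells above 1 threshold only, and from 89 to 886 with 1 library left out. For Sox3+ against Gfra1+ cells, where 1652 genes were called, the count was 4288 without marked cells, 256 with classes by any UMI and 2954 with cells above more than 1 threshold kept, and from 680 to 3320 with 1 library left out. For Kit+ against Sox3+ cells, where 1796 genes were called, the count was 3037 with no filter on low counts, 3545 without marked cells, 0 with classes by any UMI and 1160 with cells above more than 1 threshold kept, and from 3 to 3007 with 1 library left out. For the change in Sox3+ minus that in Gfra1+ cells, where 3 genes were called, the count was 5 by DESeq2, 121 with no filter on low counts, 258 without marked cells, 1 without doublets, 0 with classes by any UMI and 290 with cells above more than 1 threshold kept, and from 0 to 294 with 1 library left out. For the change in Kit+ minus that in Sox3+ cells, where 434 genes were called, the count was 1715 with no filter on low counts, 10 without marked cells, 0 with classes by any UMI and 111 with cells above more than 1 threshold kept, and from 0 to 2641 with 1 library left out.

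Log2 values that turned sign, with the reported value in parentheses, were as follows. In all passing cells, Rara (-0.24) was at -0.76 to 0.061 with 1 library left out, Rxrb (-0.08) was at -0.30 to 0.11 with 1 library left out, Crabp1 (0.31) was at -0.027 to 0.72 with 1 library left out, Rdh10 (-0.062) was at -0.48 to 0.12 with 1 library left out. In Gfra1+ cells, Rara (0.035) was at -0.020 in cells above 1 threshold only and -0.012 with the block and without marked cells and -0.037 with the block in cells above 1 threshold only and -0.24 to 0.27 with 1 library left out, Rxrb (-0.23) was at -0.49 to 0.092 with 1 library left out, Stra8 (0.20) was at -0.14 to 0.47 with 1 library left out. In Sox3+ cells, Rara (-0.10) was at -0.44 to 0.18 with 1 library left out, Rxra (-0.21) was at -0.65 to 0.12 with 1 library left out, Rxrb (-0.08) was at -0.23 to 0.011 with 1 library left out, Rdh10 (0.07) was at -0.19 with classes by any UMI and -0.31 in cells above 1 threshold only and -0.32 with the block in cells above 1 threshold only and -0.36 to 0.36 with 1 library left out. In Kit+ cells, Rara (0.26) was at -0.18 with classes by any UMI and -0.011 in cells above 1 threshold only, Rarg (-1.18) was at 0.052 in cells above 1 threshold only, Rxra (0.089) was at -0.18 with classes by any UMI and -0.056 to 0.27 with 1 library left out, Stra8 (-0.30) was at -0.70 to 0.082 with 1 library left out, Rdh10 (-0.58) was at 0.21 without marked cells and 0.23 with the block and without marked cells. In Sox3+ against Gfra1+ cells, Rxra (0.12) was at -0.024 with classes by any UMI, Rdh10 (-0.28) was at 0.045 with cells above more than 1 threshold kept. In Kit+ against Sox3+ cells, Rxra (-0.19) was at 0.027 with classes by any UMI, Rxrb (0.48) was at -0.081 with classes by any UMI, Crabp1 (0.72) was at -0.29 with classes by any UMI, Dhrs3 (2.01) was at -0.012 to 3.22 with 1 library left out, Rdh10 (0.45) was at -0.35 without marked cells and -0.19 to 0.93 with 1 library left out. For the change in Sox3+ minus that in Gfra1+ cells, Rxra (0.22) was at -0.31 with classes by any UMI and -0.071 to 0.33 with 1 library left out, Rxrb (-0.045) was at 0.085 with cells above more than 1 threshold kept and -0.26 to 0.20 with 1 library left out, Dhrs3 (0.39) was at -0.37 to 0.79 with 1 library left out, Rdh10 (-0.42) was at -1.27 to 0.037 with 1 library left out, Aldh1a2 (-0.10) was at 0.64 with classes by any UMI and 0.18 with cells above more than 1 threshold kept and -0.31 to 0.076 with 1 library left out. For the change in Kit+ minus that in Sox3+ cells, Crabp1 (0.30) was at -0.27 without marked cells and -0.20 with cells above more than 1 threshold kept and -0.13 to 0.61 with 1 library left out, Rdh10 (-1.46) was at 0.18 without marked cells.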
